A study of Saccharomyces cerevisiae with 11 samples.

Results

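The 81 genes described here encode the proteins of the large (60S) ribosomal subunit of budding yeast, Saccharomyces cerevisiae. They were taken by standard name: every gene from RPL1A to RPL43B, and the P-stalk genes RPP0, RPP1A, RPP1B, RPP2A and RPP2B. RPP1, which encodes a ribonuclease P subunit, is not a member. All 81 were found, among 5756 genes listed in any library, and each was listed in all 11 libraries, with a lowest count of 54. They encode 48 proteins: 33 of the RPL proteins are made from an A and a B gene copy, 10 from a single gene, and each of the 5 P-stalk genes was taken as its own protein.

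The study measured ribosome-protected mRNA fragments (footprints) and total mRNA in 2 yeast strains depleted of genomic rDNA, in which all rRNA comes from a plasmid. In the ΔES7S group the plasmid rRNA lacks ES7S, an expansion segment of the small subunit's 18S rRNA, and in the WT group the plasmid carries the wild-type rRNA sequence. The footprint libraries were 3 ΔES7S and 3 WT replicates, and the mRNA libraries were 3 ΔES7S replicates (1 to 3) and 2 WT replicates (2 and 3). Both groups share the depleted genomic rDNA, growth in YPD to an optical density of 0.8, and the background strain, which is called yJD1045 in the series description and yJD1046 in the samples' source fields. No WT mRNA library numbered 1 was used here. Nothing in the labels tells whether the replicates come from separate cultures, and the p-values therefore measure only the spread between these libraries, which may be technical.

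The 60S subunit carries the peptidyl transferase centre, where peptide bonds form, the tunnel through which the nascent chain leaves, and the P-stalk, which recruits the GTPases of initiation and elongation. Its proteins are imported into the nucleus, several of them with a dedicated chaperone, and join precursor particles in the nucleolus, the nucleoplasm and, for the last ones, the cytoplasm. Transcription of the RPL, RPP and 40S (RPS) genes is controlled together in yeast, with high levels in rapidly growing cells and low levels under stress, and many of the proteins have duplicate genes left by a whole-genome duplication.

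The share of all counts that fell on the 60S genes was 6.94, 5.04 and 3.42% in ΔES7S footprint replicates 1 to 3, against 3.38, 3.44 and 3.49% in WT footprint replicates 1 to 3. In mRNA it was 8.98, 10.3 and 8.11% in ΔES7S, against 6.45 and 7.79% in WT. ΔES7S footprint replicate 3 therefore stood within the WT range and apart from the other ΔES7S footprint libraries, and it also had the lowest total of all libraries (5712239 counts, in a range up to 57968667). The genes of the other ribosomal subunit had shares that ran alongside in footprints: the ratio of the 60S share to the 40S share was 1.61, 1.66 and 1.71 in ΔES7S footprints, against 1.67, 1.77 and 1.71 in WT footprints. In mRNA the groups did not overlap in this ratio, with 1.579, 1.576 and 1.576 in ΔES7S, against 1.504 and 1.467 in WT. Counts are relative within a library made from a whole culture, so fewer cells making an RNA and less of it per cell cannot be told apart.

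**Figure D1:**
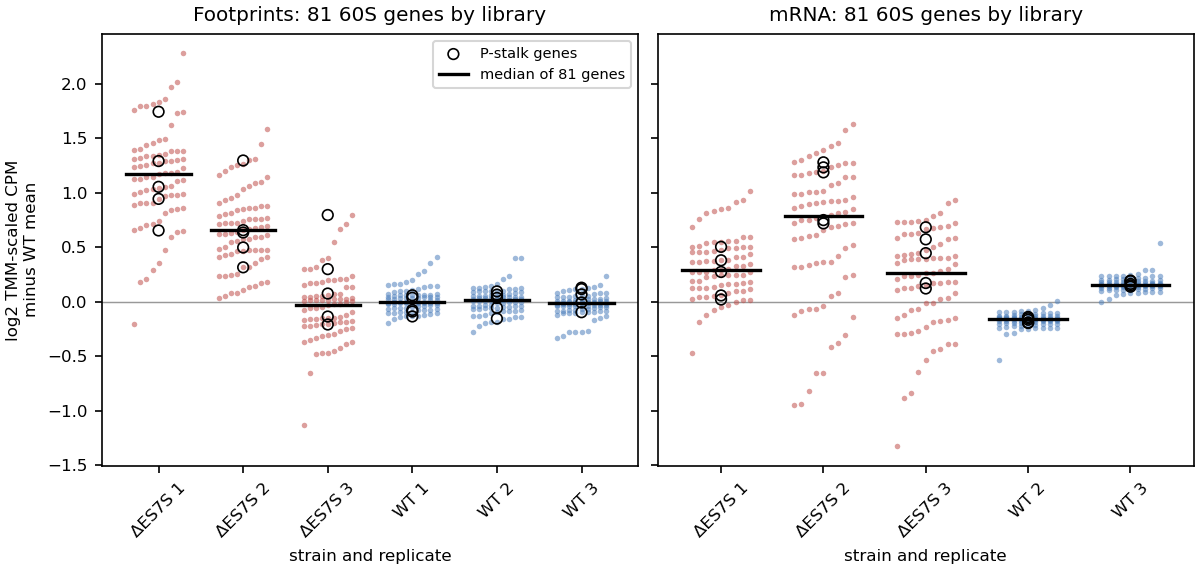
Level of each 60S gene (dots; open circles mark the P-stalk genes) in each footprint and mRNA library, as the log2 of CPM (counts scaled to the library total) corrected by TMM factors, minus the mean of the WT libraries of the same assay; the line is the median of the 81 genes. The ΔES7S footprint medians were 1.17, 0.66 and -0.03 in replicates 1 to 3, against 0.00, 0.01 and -0.01 in WT, and the ΔES7S mRNA medians were 0.30, 0.79 and 0.26, against -0.16 and 0.16 in WT.

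In footprints, 19 of the 81 genes rose in ΔES7S and 0 fell (edgeR quasi-likelihood test, adjusted p under 0.05). Over all genes tested, 14.2% rose and 12.6% fell. The median log2 fold change of the 81 was 0.66, against 0.00 over all genes, and 80 of the 81 estimates were positive, from -0.07 for RPL35B to 1.61 for RPL8A. With a median standard error (SE) of 0.26, many estimates of about the median size did not pass: 43 genes, all higher, had an unadjusted p under 0.05, where 39.2% of all genes did. DESeq2 called 43 higher and 0 lower, while its count over all genes, both directions together, stayed within 1.5 times of the 1463 called by edgeR. The DESeq2 share of all genes that were higher is not given here, so the 43 cannot be set against it. Every ΔES7S library lay above every WT library for 20 of the 81 genes, beside 21.5% of all genes, and below for 0, beside 21.2% of all genes. The 57 genes of the 40S proteins gave a median of 0.66 as well, with 17 higher and 0 lower. The count depended on single libraries: it was 72 without ΔES7S replicate 3 (median 0.94, with 16.8% of all genes higher), 14 without ΔES7S replicate 1 (median 0.35, 14.5%), 5 without ΔES7S replicate 2 (7.6%), and 6, 5 and 5 without WT replicates 1, 2 and 3 (10.8, 8.73 and 6.72%). RPL32, RPP2B, RPL19A, RPL19B and RPL35A passed in each of these 6 fits.

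A list of 16 genes that yeast induces under stress was followed beside the 60S genes. Its footprint medians, on the scale relative to the WT mean, were 0.73, 1.09 and 1.26 in ΔES7S replicates 1 to 3, against 0.30, 0.05 and -0.34 in WT replicates 1 to 3. The order of the ΔES7S replicates on this list was thus the reverse of their order on the 60S genes. In the edgeR test, 9 of the 16 stress genes rose in ΔES7S footprints and 0 fell, beside 14.2% higher and 12.6% lower of all genes, with a median log2 fold change of 0.91. HXK1, a hexokinase, rose by 2.12 ± 0.23 (adjusted p = 0.000685). Of the heat shock genes on the list, HSP42 and HSP104 rose, by 1.45 ± 0.21 and 0.73 ± 0.22 (adjusted p = 0.0013 and 0.0348). HSP12 and HSP26 were at 0.29 ± 0.22 and 0.46 ± 0.55 and did not pass. In mRNA the median of the 16 was -0.13 and the lowest adjusted p was 0.0745, for GPH1. The part of stress or of depth in the 60S results was not tested.

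The P-stalk stands on P0, the protein of RPP0, which is bound to the 60S subunit and carries 2 dimers of the acidic proteins P1 and P2. In yeast these dimers pair P1A with P2B, and P1B with P2A. Levels are given for each library, in replicate order, as CPM, counts scaled to a common library total. RPP2B had 2825, 2050.5 and 1492 CPM in the ΔES7S footprint libraries, against 807, 913 and 957 CPM in the WT ones. All 3 ΔES7S libraries were above all 3 WT libraries, and the means were 2122 ± 669 CPM in ΔES7S (SD, n = 3) and 892 ± 77.2 CPM in WT (SD, n = 3). RPP2B rose by 1.33 ± 0.23 (log2 fold change ± SE, adjusted p = 0.00259), the lowest adjusted p of the 81 genes. RPP0 had 3295, 2218 and 1989 CPM in the ΔES7S footprint libraries, against 1709, 1475 and 1861 CPM in the WT ones, also without overlap, and rose by 0.65 ± 0.21 (adjusted p = 0.0411). With a footprint library left out, RPP2B passed in all 6 fits (1.07 to 1.53), and RPP0 in 1, the fit without ΔES7S replicate 3 (0.80); in the other 5 fits RPP0 did not pass, with a lowest estimate of 0.40, and it did not pass with a replicate block either.

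The other 3 stalk genes did not pass the edgeR test, while DESeq2 called RPP1A and RPP2A higher (adjusted p = 0.0134 and 0.0287). RPP1A, whose protein pairs with P2B, had 839.8, 681 and 468 CPM in the ΔES7S footprint libraries, against 435, 435 and 517 CPM in the WT ones. Its lowest ΔES7S library lay inside the WT range, and its log2 fold change was 0.60 ± 0.20 (adjusted p = 0.0511). RPP2A had 1142, 717 and 433 CPM in the ΔES7S footprint libraries, against 511, 495 and 473 CPM in the WT ones, so that ΔES7S replicates 1 and 2 were above WT and replicate 3 was below (0.71 ± 0.31, adjusted p = 0.13). RPP1B had 636, 498 and 356 CPM in the ΔES7S footprint libraries, against 398, 446 and 435 CPM in the WT ones, with the smallest estimate of the 5 (0.30 ± 0.20, adjusted p = 0.295). Without ΔES7S replicate 3, the log2 fold changes of all 5 passed the test, at 1.53 for RPP2B, 0.999 for RPP2A, 0.81 for RPP1A, 0.80 for RPP0 and 0.49 for RPP1B. In each of the other 5 fits with a footprint library left out, RPP2B alone of the 5 passed, and the lowest estimates were 0.30 for RPP2A, 0.39 for RPP1A and 0.08 for RPP1B. Whether the stalk genes differed from each other in their response was not tested. Together the 5 genes took 12.6, 12.2 and 13.8% of the 60S footprint counts in ΔES7S, against 11.4, 10.9 and 12.2% in WT, so that the lowest ΔES7S and the highest WT share were level at 12.2%.

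**Figure D2:**
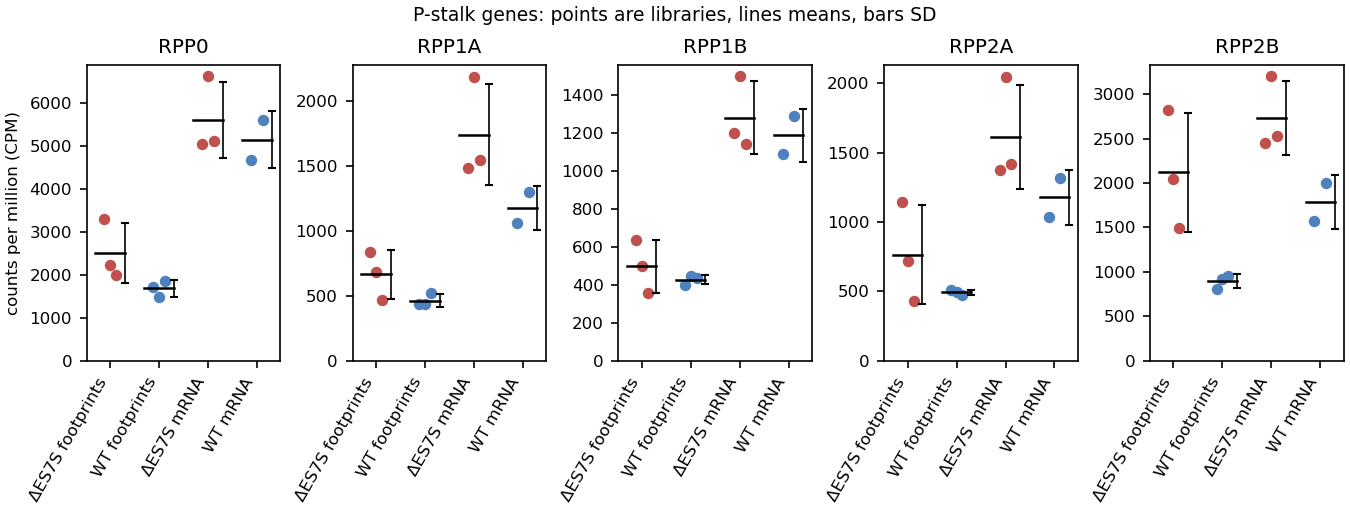
CPM of the 5 P-stalk genes in each footprint and mRNA library (points), with the group mean (line) and SD (bar; 3 libraries a group, 2 for WT mRNA). In footprints RPP2B and RPP0 have all ΔES7S points above all WT points, and in the other 3 genes the groups overlap.

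In mRNA the stalk genes did not pass the edgeR test in either direction, and RPP1A and RPP2B had an unadjusted p under 0.05. DESeq2 called RPP1A and RPP2B higher in mRNA (adjusted p = 0.0497 and 0.0211). RPP2B had 2448, 3207 and 2529 CPM in the ΔES7S mRNA libraries, against 1570.3 and 2004 CPM in the WT ones, with no overlap and a log2 fold change of 0.83 ± 0.30 (adjusted p = 0.125). RPP1A had 1484, 2187 and 1547 CPM in the ΔES7S mRNA libraries, against 1059 and 1296 CPM in the WT ones, and RPP2A had 1376, 2049 and 1416 CPM in the ΔES7S mRNA libraries, against 1039 and 1318 CPM in the WT ones, likewise with every ΔES7S library above both WT libraries. For RPP0 (5051, 6616 and 5119 CPM in the ΔES7S mRNA libraries, against 4670.2 and 5609.7 CPM in the WT ones) and RPP1B (1201, 1501 and 1145 CPM in the ΔES7S mRNA libraries, against 1091 and 1289 CPM in the WT ones) the groups overlapped. ΔES7S replicate 2 was the highest mRNA library for all 5 genes. The 5 genes took 12.9, 15.2 and 14.5% of the 60S mRNA counts in ΔES7S, against 14.6 and 14.8% in WT, so the stalk's share of the set did not differ beyond the spread between replicates. Translation efficiency, the footprint change minus the mRNA change, was 0.45 ± 0.39 for RPP2B (adjusted p = 0.469) and between -0.24 and 0.26 for the other 4 genes, and none of the 5 passed.

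Of the 10 RPL proteins made from a single gene, 5 rose in footprints, where 14.2% of all genes rose: RPL32, RPL30, RPL28, RPL3 and RPL25. RPL32 showed the largest change among the genes that passed, with 2354, 1574 and 976 CPM in the ΔES7S footprint libraries, against 661, 591 and 596 CPM in the WT ones. The lowest ΔES7S library was above the highest WT library, and the log2 fold change was 1.49 ± 0.29 (adjusted p = 0.00605). RPL30, whose protein is known to limit its own supply by blocking the splicing of its transcript, had 1039, 762 and 458 CPM in the ΔES7S footprint libraries, against 407, 396 and 462 CPM in the WT ones. ΔES7S replicate 3 lay just under the highest WT value here, and overlap disappeared only on the TMM scale (0.92 ± 0.26, adjusted p = 0.0312).

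RPL3, which encodes a protein next to the peptidyl transferase centre, had 4274, 2721 and 1869 CPM in the ΔES7S footprint libraries, against 1679.7, 1797 and 1810.02 CPM in the WT ones. The groups did not overlap, although ΔES7S replicate 3 exceeded the highest WT library only slightly (0.82 ± 0.27, adjusted p = 0.0473). RPL25, whose protein sits at the exit of the tunnel and is a docking site for factors that meet the nascent chain, had 1764, 1226 and 899.6 CPM in the ΔES7S footprint libraries, against 874, 814 and 866 CPM in the WT ones, which gave 0.68 ± 0.23 (adjusted p = 0.0466). RPL28 had 2251, 1674 and 1085 CPM in the ΔES7S footprint libraries, against 1017, 965 and 935 CPM in the WT ones, again with ΔES7S replicate 3 the closest to WT (0.86 ± 0.24, adjusted p = 0.0264). Of 6 fits with a library left out, RPL32 passed in 6, RPL28 and RPL30 in 2, and RPL3 and RPL25 in 1.

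The other 5 single genes did not pass the edgeR test, while DESeq2 called RPL5 and RPL39 higher (adjusted p = 0.0102 and 0.00794). RPL10, whose protein joins the subunit last, in the cytoplasm, had 7007, 6791 and 5923 CPM in the ΔES7S footprint libraries, against 5708, 7025 and 6509.9 CPM in the WT ones. The ΔES7S values lay around the WT values, with a log2 fold change of 0.11 ± 0.17 (adjusted p = 0.665), and without ΔES7S replicate 3 it was 0.19, still not past the threshold. RPL5, whose protein binds the 5S rRNA, had 2384, 1528 and 991 CPM in the ΔES7S footprint libraries, against 1022, 991 and 1029.7 CPM in the WT ones, where ΔES7S replicates 1 and 2 were higher than every WT library and replicate 3 was level with WT (0.77 ± 0.28, adjusted p = 0.071). RPL39, which encodes a small protein lining the exit tunnel, had 895, 699.8 and 412 CPM in the ΔES7S footprint libraries, against 458, 360.2 and 440.04 CPM in the WT ones (0.75 ± 0.26, adjusted p = 0.0582), with replicate 3 of ΔES7S inside the WT range. RPL38 and RPL29, for a pair of small proteins, had log2 fold changes of 0.32 ± 0.23 and 0.46 ± 0.24 (adjusted p = 0.332 and 0.2), with ΔES7S replicate 3 below every WT library in both genes.

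Among the 66 genes that come in pairs, 12 rose in footprints, where 14.2% of all genes rose. They were 9 of the 33 A copies (median 0.79) and 3 of the 33 B copies (median 0.57). RPL19 was the pair with both copies past the threshold. Its protein reaches from the tunnel exit side of the subunit to a contact with the 40S subunit. RPL19A had 1244, 877 and 531 CPM in the ΔES7S footprint libraries, against 387, 371 and 374 CPM in the WT ones. RPL19B had 1507, 1059 and 722 CPM in the ΔES7S footprint libraries, against 461, 473 and 478 CPM in the WT ones. In both copies every ΔES7S library was above every WT library, and the log2 fold changes were 1.31 ± 0.27 for RPL19A and 1.30 ± 0.24 for RPL19B (adjusted p = 0.00866 and 0.00445). How reads that fit both copies of a pair were counted is not given in the sources used here, so values of copies with similar sequences may not be independent of each other.

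Among the other paired genes past the threshold were RPL21A at 1.21, RPL23A at 1.197, RPL14A at 0.96, RPL7B at 0.94, RPL42B at 0.84, RPL31A at 0.83, RPL11A at 0.83, RPL22A at 0.78 and RPL35A at 0.66, with adjusted p between 0.0108 and 0.0473. Of these, RPL35A passed in all 6 fits with a library left out. RPL14A passed only in those without ΔES7S replicate 1 or 3 or WT replicate 1. RPL21A, RPL7B, RPL42B, RPL31A and RPL11A passed only in those without ΔES7S replicate 1 or 3. RPL23A and RPL22A passed only in that without ΔES7S replicate 3. RPL8A had the largest estimate of all 81 genes, 1.61 ± 0.47, and missed the threshold in edgeR (adjusted p = 0.0559), while DESeq2 called it higher (adjusted p = 0.0150). Its values were 333, 204 and 85.96 CPM in the ΔES7S footprint libraries, against 74.04, 69.3 and 73.5 CPM in the WT ones, so that its groups did not overlap although ΔES7S replicate 1 was several times replicate 3. Without ΔES7S replicate 3 its log2 fold change was 1.98 (adjusted p = 2.86e-05), and in the other 5 fits with a library left out it did not pass, with a lowest estimate of 1.10.

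Grouped by place in the subunit, the genes gave similar medians, in a fit where 14.2% of all genes and 19 of the 81 rose. Of the 14 genes for proteins of the exit tunnel, 5 rose (RPL19A, RPL19B, RPL25, RPL31A and RPL35A), with a median of 0.67. Of the 10 genes for proteins that form bridges to the 40S subunit, 3 rose (RPL19A, RPL19B and RPL11A), with a median of 0.82. For the 3 genes of the 5S ribonucleoprotein, RPL5, RPL11A and RPL11B, the median was 0.77 and RPL11A rose. Of 9 genes for proteins that join the particle late, RPP0 and RPL42B rose, with a median of 0.57. All these groups belong to the 81, share genes with each other, and were read from the same fit, and no difference between them was tested.

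In mRNA, none of the 81 genes passed the test in either direction, where 1.19% of all genes rose and 1.57% fell. The median log2 fold change was 0.45, against -0.01 over all genes, and 66 estimates were positive. The lowest adjusted p was 0.0564, for RPL4A, which had 631, 620.5 and 527 CPM in the ΔES7S mRNA libraries, against 347 and 373 CPM in the WT ones (0.92 ± 0.21). At an unadjusted p under 0.05 there were 29 higher and 1 lower, where 30.8% of all genes passed in either direction. DESeq2 called 23 higher and 1 lower, in a fit where 1031 of all genes passed in either direction. All ΔES7S libraries lay above both WT libraries for 44 genes, beside 26.3% of all genes, and below for 1 gene, RPL15B, beside 28.5% of all genes. The 40S genes had the same median, 0.45, with 0 higher and 1 lower. Leaving out ΔES7S mRNA replicate 1 gave 26 genes higher and 6 lower, in a fit where 19.7% of all genes were higher and 24.4% lower. Without ΔES7S mRNA replicate 2 or 3, 0 of the 81 passed, in fits where 0 of all genes passed. Over all 5 fits with a library left out, the median log2 fold change of the 81 stayed between 0.26 and 0.65.

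**Figure D3:**
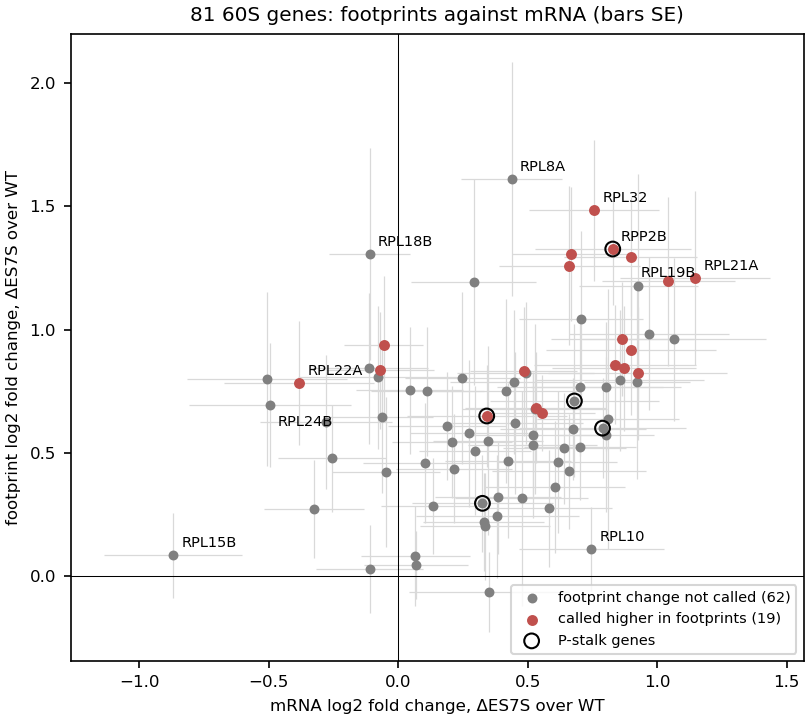
Log2 fold change of ΔES7S over WT in mRNA (horizontal axis) and in footprints (vertical axis) for the 81 genes, with SE bars; the 19 genes that rose in footprints are red and the other 62 grey. All genes except RPL35B lie above 0 in footprints, and 66 of 81 lie above 0 in mRNA.

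The single genes had a median mRNA log2 fold change of 0.72, the P-stalk genes 0.68 and the paired genes 0.43. RPL3 mRNA was 9382, 12912 and 8986 CPM in the ΔES7S mRNA libraries, against 5841 and 6988 CPM in the WT ones (0.92 ± 0.34, adjusted p = 0.129). RPL32 mRNA was 3135, 2366 and 2109 CPM in the ΔES7S mRNA libraries, against 1553 and 1869 CPM in the WT ones (0.76 ± 0.25, adjusted p = 0.111). In both genes all ΔES7S libraries exceeded both WT libraries, but the highest was replicate 2 for RPL3 and replicate 1 for RPL32. RPL10 mRNA was 6004, 6962 and 6637 CPM in the ΔES7S mRNA libraries, against 4240.2 and 4777 CPM in the WT ones, without overlap (0.75 ± 0.28, adjusted p = 0.129). RPL39 mRNA was 1023, 718 and 709 CPM in the ΔES7S mRNA libraries, against 859 and 940.04 CPM in the WT ones, with the groups overlapping (0.04 ± 0.21, adjusted p = 0.904).

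Some paired genes had negative mRNA estimates. RPL15B, the minor copy of its pair by count, had 17.2, 9.76 and 8.68 CPM in the ΔES7S mRNA libraries, against 23.9 and 25.3 CPM in the WT ones. All ΔES7S libraries were below both WT libraries, and the log2 fold change was -0.87 ± 0.27 (adjusted p = 0.0939). For RPL24B (605, 262 and 288 CPM in the ΔES7S mRNA libraries, against 528 and 681 CPM in the WT ones), RPL22A (877, 416 and 486 CPM in the ΔES7S mRNA libraries, against 732 and 996 CPM in the WT ones) and RPL34A (516, 206 and 256 CPM in the ΔES7S mRNA libraries, against 475 and 554 CPM in the WT ones), ΔES7S replicates 2 and 3 were below WT, while replicate 1 was inside the WT range. Their log2 fold changes were -0.50 ± 0.31, -0.38 ± 0.29 and -0.51 ± 0.31, and none passed. Without ΔES7S mRNA replicate 1 the 6 genes that were lower were RPL15B at -1.13, RPL34A at -0.89, RPL24B at -0.86, RPL22A at -0.67, RPL11B at -0.55 and RPL36A at -0.46.

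For translation efficiency, the interaction of strain and assay in a model over all 11 libraries, none of the 81 genes passed in either direction, where 4.63% of all genes were higher in ΔES7S and 4.33% lower. The median was 0.11 and 49 estimates were positive. At an unadjusted p under 0.05 there were 10 higher and 1 lower, where 29% of all genes passed in either direction. DESeq2, with 909 of all genes passing in either direction, called 4 higher: RPL24B, RPL22A, RPL15B and RPL18B. RPL15B had the lowest adjusted p (0.92 ± 0.31, adjusted p = 0.0765), from footprints of 38.1, 37.5 and 33.6 CPM in the ΔES7S footprint libraries, against 31.96, 45.9 and 30.04 CPM in the WT ones, beside the lower mRNA given above. Its footprint groups overlapped. RPL18B had the largest estimate (1.37 ± 0.47, adjusted p = 0.0829), with 77.98, 43.7 and 23.3 CPM in the ΔES7S footprint libraries, against 24.9, 21.6 and 17.1 CPM in the WT ones, so that only ΔES7S replicates 1 and 2 were above WT. RPL24B and RPL22A had 1.16 ± 0.42 and 1.13 ± 0.41 (adjusted p = 0.0982 and 0.0921). At the other end was RPL10 with -0.68 ± 0.31 (adjusted p = 0.171), the lowest estimate of the 81, from footprints level with WT and higher mRNA.

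Translation efficiency also turned on single libraries. Without ΔES7S footprint replicate 3, 13 of the 81 genes were higher and 0 lower, where 3.88% of all genes were higher, and the largest of them were RPL18B at 1.70 and RPL8A at 1.52. Without ΔES7S mRNA replicate 1, 5 were higher (RPL34A, RPL11B, RPL24B, RPL22A and RPL15B) and RPL10 was lower at -0.83 (adjusted p = 0.0364), where 17.4% of all genes were higher and 15.7% lower. The median of the 81 ran from -0.21 without ΔES7S footprint replicate 1 to 0.38 without ΔES7S footprint replicate 3.

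Set against their own mRNA, the 60S genes had low footprint levels in both strains, relative to the average gene. In ΔES7S, 48 of 81 genes were lower in footprints than in mRNA and 3 were higher, where 36.7% of all genes were lower and 35.2% higher. In WT, 55 were lower and 2 higher, where 31.6% of all genes were lower and 31.5% higher. The median log2 difference was -0.83 in ΔES7S and -1.12 in WT. The 40S genes gave -1.02 in ΔES7S, with 39 lower and 1 higher, and -1.15 in WT, with 44 lower and 0 higher. The footprint and mRNA libraries were made by different digestion and selection, and both are scaled to the average gene, so these differences are not numbers of ribosomes per message.

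**Figure D4:**
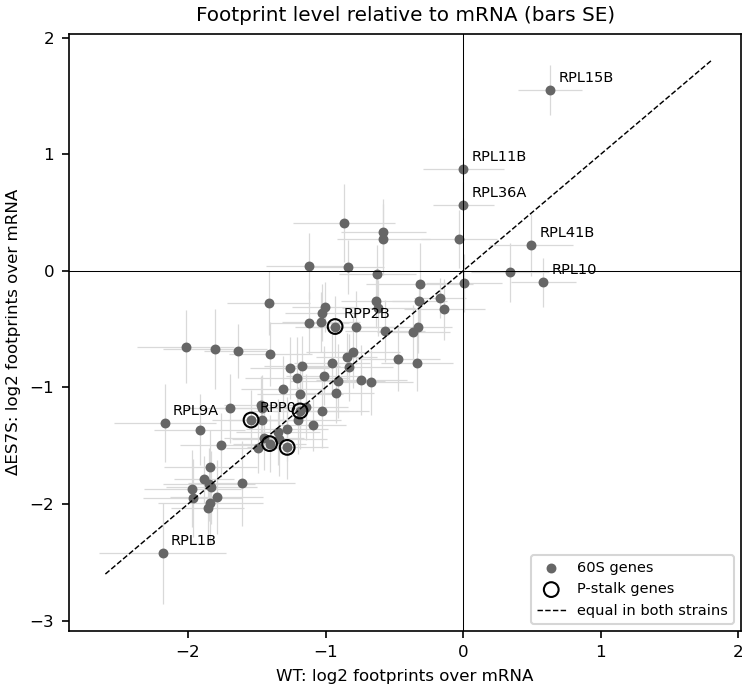
Log2 difference of footprints over mRNA for each of the 81 genes, in WT (horizontal axis) and in ΔES7S (vertical axis); open circles mark the P-stalk genes and the dashed line marks equal values in both strains. Most genes lie below 0 on both axes, and RPL10 and RPL15B stand at the right, with WT values of 0.58 and 0.63.

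RPL10 and RPL15B were the genes with higher footprints than mRNA in WT. RPL10 stood at -0.10 ± 0.21 in ΔES7S (adjusted p = 0.68) and 0.58 ± 0.24 in WT (adjusted p = 0.0465). RPL15B stood at 1.55 ± 0.21 in ΔES7S (adjusted p = 3.15e-05) and 0.63 ± 0.23 in WT (adjusted p = 0.0294). In ΔES7S the other genes with higher footprints were RPL11B at 0.87 ± 0.27 and RPL36A at 0.56 ± 0.20 (adjusted p = 0.011 and 0.0233). Of 11 fits with a library left out, RPL15B passed in all 11 in ΔES7S and in 7 in WT (not without ΔES7S footprint replicate 2, WT footprint replicate 2 or either WT mRNA library). RPL10 in WT passed in 3 (those without ΔES7S footprint replicate 3 or ΔES7S mRNA replicate 1 or 2), RPL11B in ΔES7S in 10 (not without ΔES7S footprint replicate 1), and RPL36A in ΔES7S in 8 (not without ΔES7S footprint replicate 1 or 2 or ΔES7S mRNA replicate 3). At the low end, RPL1B stood at -2.42 ± 0.43 in ΔES7S and -2.18 ± 0.46 in WT, and RPL9A at -1.31 ± 0.34 in ΔES7S and -2.17 ± 0.37 in WT. The stalk genes were lower in footprints than in mRNA in both strains, between -1.51 and -1.202 in ΔES7S for 4 of the 5 and between -1.54 and -0.93 in WT for all 5. The exception was RPP2B in ΔES7S, at -0.48 ± 0.26 (adjusted p = 0.121), which passed in 2 of the 11 fits (those without ΔES7S footprint replicate 1 or ΔES7S mRNA replicate 1), while in WT it did not pass without WT mRNA replicate 3. The 5S ribonucleoprotein genes were split, with RPL5 at -1.83 in ΔES7S and -1.85 in WT, and RPL11A at 0.27 in ΔES7S and -0.03 in WT.

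The A and B copies of a protein were compared within each library, as the log2 ratio of their counts, which does not depend on library scaling. In footprints the ratios of the 3 ΔES7S libraries did not overlap those of the 3 WT libraries in 17 of 33 pairs, 51.5%, with the A share higher in 11 and lower in 6. Among the 24 pairs of 40S genes it was 13, 54.2%. In mRNA there was no overlap in 25 of the 33 pairs, 75.8% (A share higher in 13 and lower in 12), beside 14 of the 24 40S pairs, 58.3%. The median size of the difference was 0.26 in footprints and 0.46 in mRNA (log2), while the median SD between replicates was 0.14 in ΔES7S and 0.11 in WT for footprints, and 0.24 in ΔES7S and 0.06 in WT for mRNA. Each pair was tested by a two-sided exact permutation test, which cannot go below p = 0.1 for 3 against 3 libraries or p = 0.2 for 3 against 2. Every pair without overlap was at that limit, which corresponds to 0.194 in footprints and 0.264 in mRNA after Benjamini-Hochberg adjustment over the 33 pairs, so no pair passed 0.05.

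**Figure D5:**
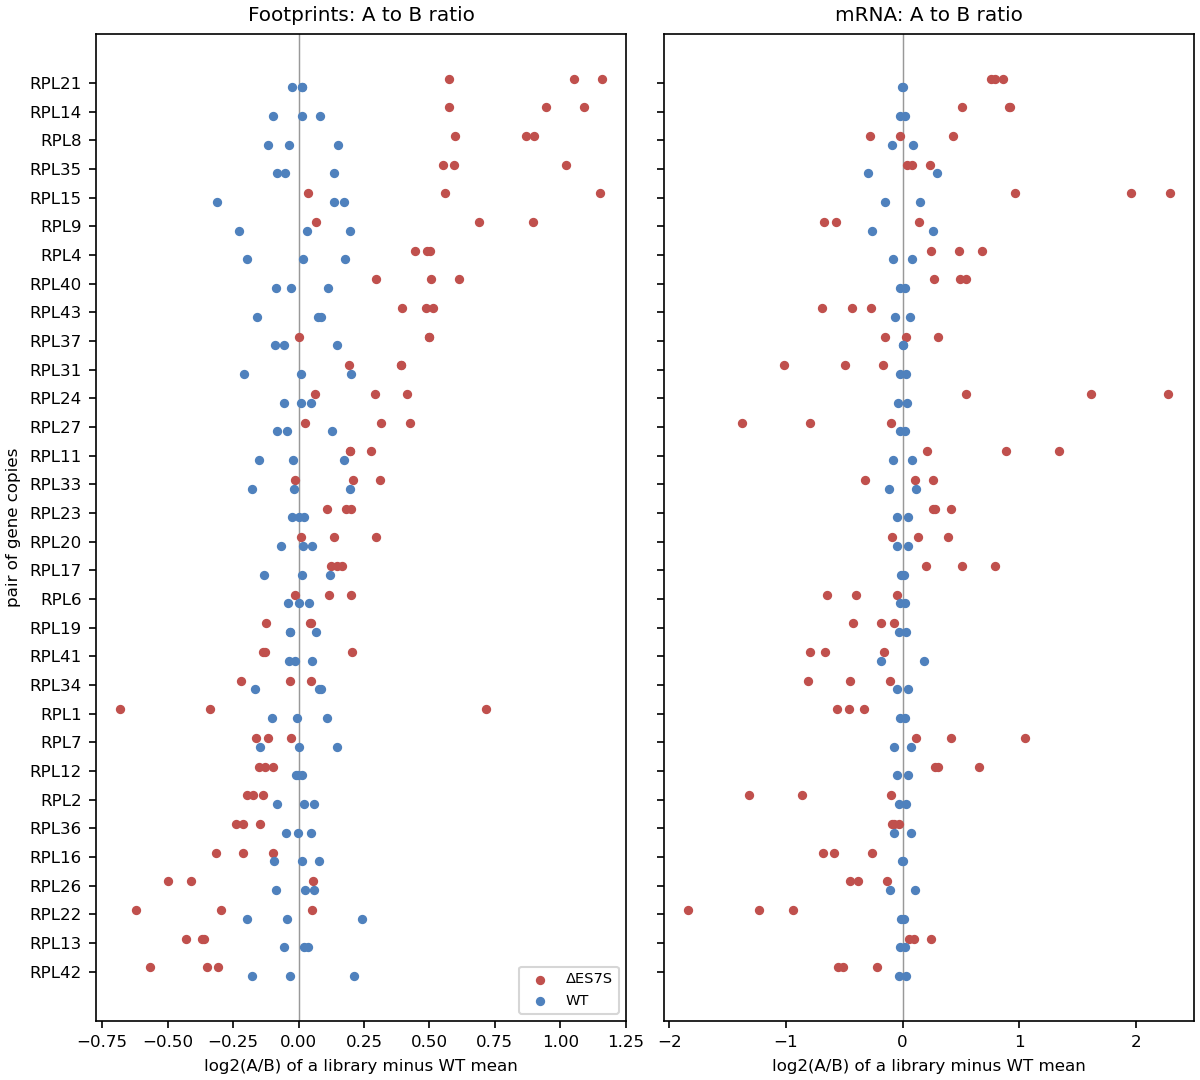
Log2 ratio of A to B copy counts in each library, minus the WT mean of the same assay, for pairs of copies in footprints and mRNA, ordered by the footprint difference between ΔES7S and WT. RPL21, RPL14, RPL8 and RPL35 stand at the end with the highest A share in ΔES7S footprints, and RPL42 at the other end.

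The largest footprint difference was in RPL21, whose A copy took 71.6, 70.1 and 62.7% in ΔES7S, against 52.6, 53.2 and 53.2% in WT. In mRNA its A copy took 67.8, 68.9 and 67.2% in ΔES7S, against 54.8 and 54.9% in WT, again without overlap. The log2 difference was 0.93 in footprints and 0.80 in mRNA. RPL21A had 539.6, 340.3 and 185 CPM in the ΔES7S footprint libraries, against 153, 171 and 163 CPM in the WT ones. RPL21B had 214, 146 and 109.8 CPM in the ΔES7S footprint libraries, against 138, 149.98 and 144 CPM in the WT ones. The groups did not overlap in the A copy and overlapped in the B copy.

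RPL14 had the next largest difference. Its A copy took 84.5, 83.1 and 79.2% in ΔES7S, against 73.00, 72.02 and 70.5% in WT, in footprints, and 82.7, 86.3 and 86.4% in ΔES7S, against 76.8 and 77.3% in WT, in mRNA (log2 differences of 0.87 and 0.78). RPL14A rose in footprints (0.96 ± 0.23), and RPL14B had 0.05 ± 0.14 with 143, 118 and 99.6 CPM in the ΔES7S footprint libraries, against 120.1, 114 and 136 CPM in the WT ones. As for RPL21, the groups of the A copy did not overlap and those of the B copy did.

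RPL8 and RPL35 showed a difference in footprints and overlap in mRNA. The RPL8A share of footprints was 26.03, 25.6 and 22.2% in ΔES7S, against 14.8, 15.5 and 17.3% in WT, a log2 difference of 0.79. Its mRNA share was 27.7, 19.02 and 21.9% in ΔES7S, against 23.2 and 21.2% in WT, a difference of 0.04. The RPL35A share of footprints was 81.2, 76.2 and 75.7% in ΔES7S, against 70.02, 66.7 and 67.2% in WT, and that of mRNA was 70.2, 72.4 and 69.5% in ΔES7S, against 73.3 and 64.4% in WT (0.72 and 0.12). Both RPL35 copies had low counts: RPL35A had 52.7, 49.04 and 39.9 CPM in the ΔES7S footprint libraries, against 36.03, 25.5 and 34.3 CPM in the WT ones, and RPL35B had 12.2, 15.3 and 12.8 CPM in the ΔES7S footprint libraries, against 15.4, 12.7 and 16.8 CPM in the WT ones. Whether the footprint difference of a pair differed from its mRNA difference was not tested.

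In RPL15 and RPL9, which complete the 6 largest footprint differences, the groups overlapped. The RPL15A share of footprints was 97.2, 95.9 and 94.2% in ΔES7S, against 94.5, 92.7 and 94.7% in WT (log2 difference 0.58, two-sided exact permutation p = 0.3). Its mRNA share was 99.1, 99.7 and 99.6% in ΔES7S, against 98.2 and 98.5% in WT, without overlap and with the largest mRNA difference of the 33 pairs, 1.74. The RPL9A share of footprints was 66.4, 63.1 and 52.6% in ΔES7S, against 52.00, 54.9 and 47.5% in WT, and that of mRNA was 70.7, 57.9 and 59.6% in ΔES7S, against 64.7 and 72.4% in WT (log2 differences of 0.55 and -0.37, two-sided exact permutation p = 0.2 and 0.4).

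Of the 14 pairs without overlap in both assays, 11 moved the same way and 3 the opposite way. The 3 were RPL12, RPL13 and RPL43. No matching count was made for pairs of small-subunit genes, so whether these numbers are particular to large-subunit pairs was not tested. For RPL43 the A share was 73.1, 73.5 and 71.8% in ΔES7S, against 67.3, 67.1 and 63.5% in WT, in footprints, and 75.9, 70.3 and 73.8% in ΔES7S, against 79.9 and 78.5% in WT, in mRNA, so the A share was higher in ΔES7S footprints and lower in ΔES7S mRNA than in WT. RPL42 had the lowest footprint difference, -0.41, with an A share of 49.8, 49.04 and 45.2% in ΔES7S, against 51.98, 58.6 and 54.5% in WT, and -0.43 in mRNA. The largest mRNA differences beside RPL15 were in RPL24 and RPL22. The RPL24A share of mRNA was 60.3, 83.5 and 76.2% in ΔES7S, against 51.8 and 50.4% in WT, a difference of 1.48, while the footprint difference was 0.26. The RPL22A share of mRNA was 84.96, 75.2 and 82.2% in ΔES7S, against 91.6 and 91.5% in WT, a difference of -1.34, where RPL22 protein is known to bind the intron of RPL22B and lower its expression. In RPL24 the ΔES7S mRNA libraries differed widely among themselves, with replicate 1 the closest to WT.

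Other genes of 60S biogenesis were read from the same fits. All 5 genes for dedicated chaperones of 60S proteins fell in ΔES7S footprints, where 12.6% of all genes fell: RRB1 for Rpl3 at -0.85 ± 0.13, SYO1 for Rpl5 and Rpl11 at -0.82 ± 0.23, BCP1 for Rpl23 at -0.73 ± 0.15, ACL4 for Rpl4 at -0.68 ± 0.11 and SQT1 for Rpl10 at -0.51 ± 0.12 (log2 fold change ± SE, adjusted p from 0.00143 to 0.0318). RRB1 had 128, 101 and 108 CPM in the ΔES7S footprint libraries, against 189, 215 and 238 CPM in the WT ones, and SQT1 had 182, 171 and 208 CPM in the ΔES7S footprint libraries, against 252, 283 and 303 CPM in the WT ones. In these 2 genes every ΔES7S library, replicate 3 included, lay below every WT library. ACL4, RRB1 and BCP1 passed in all 6 fits with a footprint library left out, SQT1 in 4 (without ΔES7S replicate 2 or WT replicate 3 it did not) and SYO1 in 2 (those without ΔES7S replicate 2 or 3). In mRNA the median of the 5 was -0.33 and the lowest adjusted p was 0.0885, for ACL4, and SQT1 varied widely, with 139, 33.1 and 49.1 CPM in the ΔES7S mRNA libraries, against 128 and 136 CPM in the WT ones.

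Of 4 genes for placeholders and for stalk assembly, 3 fell in footprints, where 12.6% of all genes fell. MRT4, whose protein holds the place of P0 on precursor particles, had 124, 103 and 105 CPM in the ΔES7S footprint libraries, against 169, 145 and 193 CPM in the WT ones, and fell by 0.53 ± 0.13 (adjusted p = 0.0125). YVH1, whose protein releases Mrt4, fell by 0.47 ± 0.12 (adjusted p = 0.0138), and RLP7 fell by 0.70 ± 0.13 (adjusted p = 0.00357). RLP24, which holds the place of Rpl24, was at -0.22 ± 0.16 and did not pass. MRT4 and YVH1 also fell in translation efficiency, where 4.33% of all genes fell, at -1.03 ± 0.23 and -0.75 ± 0.18 (adjusted p = 0.0252 and 0.0303). Their mRNA estimates were positive, at 0.46 ± 0.19 and 0.24 ± 0.14, and did not pass the edgeR test. In footprints RLP7 passed in all 6 fits with a library left out, MRT4 in 4 (not without ΔES7S replicate 2 or WT replicate 3) and YVH1 in 3 (not without ΔES7S replicate 2 or WT replicate 2 or 3). In translation efficiency MRT4 passed in 7 of 11 such fits and YVH1 in 5, with highest adjusted p of 0.13 and 0.149, both without WT mRNA replicate 2. RPP0, whose protein takes the place of Mrt4, was higher in the same footprint libraries (0.65 ± 0.21), and passed in 1 of the 6 fits with a library left out.

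Of 11 regulators of ribosomal protein gene transcription, 0 rose and 2 fell in footprints, where 14.2% of all genes rose and 12.6% fell: TOD6 at -0.67 ± 0.13 and STB3 at -0.42 ± 0.13 (adjusted p = 0.00517 and 0.0306), both known as repressors of ribosome synthesis genes. In translation efficiency, where 4.33% of all genes were lower, TOD6 fell, at -1.55 ± 0.25, and so did SCH9, a kinase that promotes ribosome synthesis, at -1.205 ± 0.30 (adjusted p = 0.00937 and 0.0316). Their mRNA estimates were positive without passing the edgeR test, at 0.85 ± 0.21 for TOD6 and 0.93 ± 0.27 for SCH9 (adjusted p = 0.0624 and 0.0885). SCH9 footprints were at -0.23 ± 0.11 and did not pass the edgeR test (adjusted p = 0.143). The activators RAP1, FHL1, IFH1, SFP1 and HMO1 did not pass in footprints. Of 11 enzymes that modify 60S proteins, HPM1, which methylates Rpl3, fell in footprints by 0.58 ± 0.13 (adjusted p = 0.00932), and the other 10 did not pass, where 12.6% of all genes fell. TOD6 passed in all 6 footprint fits with a library left out, HPM1 in 4 (not without ΔES7S replicate 2 or WT replicate 3) and STB3 in 2 (those without ΔES7S replicate 3 or WT replicate 2). In translation efficiency TOD6 passed in 9 of 11 such fits (not without either WT mRNA library) and SCH9 in 3 (those without ΔES7S footprint replicate 3 or ΔES7S mRNA replicate 1 or 2).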

How the data were processed

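Per the labels' protocols, footprints came from RNase I digestion and 80S ribosomes of a density gradient, and mRNA libraries from randomly fragmented poly(A) RNA; fragments of 24 to 28 nt were amplified in 4 to 8 PCR cycles. The submitters' processing notes name FastQC 0.11.7 and Bowtie 1.2.3; not given in the sources used here are the build, annotation and counting tool, and how it treated strand or reads fitting several genes. Raw, unnormalised counts per gene and library were deposited by the authors, for genes with 1 count or more, and genes missing from a library were set to 0. Symbols came from RefSeq's R64 gene table, with 5752 of 5756 systematic names matched.

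Counts of all genes were fitted in R 4.3.3 with edgeR 4.0.16 (filterByExpr, TMM, estimateDisp, robust glmQLFit, glmQLFTest; two-sided, Benjamini-Hochberg over all genes tested, threshold 0.05). Footprints (6 libraries) and mRNA (5) were fitted separately; translation efficiency and footprints over mRNA came from 1 model over 11 libraries. SE is the absolute log2 fold change over the square root of F. CPM use library totals without TMM factors, which ran from 0.835 to 1.10; overlap of groups for single genes was counted on TMM-scaled CPM. Copy ratios are log2((A + 0.5)/(B + 0.5)) of counts, tested by exact permutation. The fits were tested on simulated data. No molecular identifiers are named, so PCR copies could not be told from separate molecules and may remain in the counts. Libraries of a group differed with a chi-square of 27.5 to 241 per degree of freedom, so none was a duplicate.

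The members and lists were chosen with earlier results of these data known. Genes given in full were the P-stalk genes, the 10 single genes, the 6 pairs with the largest footprint difference of copy ratio, and up to 6 genes with the largest change in each direction among those that passed a comparison; other genes were named after their values were seen. With no sequence of the files' build used here, levels per length, the choice of genes by them and a check for sequence shared by copies were left out. Alternatives were DESeq2 1.42.0, other scalings, no filter, a replicate block, copies summed, a joint fit and each library left out. Values of 1 member are not reported here, and its pair is not plotted; the counts and medians include it.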

Additional observations from a re-analysis of the deposited data

How the results depend on the processing

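Under the alternatives that kept all libraries, the 60S footprint count was 43 higher with DESeq2 and otherwise within 1.5 times of 19, and its median stayed positive. In mRNA, 155 genes passed in all; DESeq2 gave 1031 (60S genes: 23 higher, 1 lower), a joint fit over 11 libraries 1463 (9 higher, 1 lower) and the replicate block 1924 (10 higher, 4 lower). For translation efficiency, 501 genes passed in all, 909 with DESeq2 (4 of the 60S genes higher) and 313 with the block. Among the 60S genes, those higher in footprints than in mRNA in WT numbered 0 with upper-quartile factors, 1 with TMM without ribosomal protein genes, 1 with the block and 0 with copies summed. Copies summed over 48 proteins gave 36 lower in WT, and 30 lower and 0 higher in ΔES7S. In these fits the count over all genes, both directions together, stayed within 1.5 times of 3527 in WT and 4021 in ΔES7S. Its split by direction is not given here. Outside the 10 most abundant other genes, the 60S share averaged 10.5% in ΔES7S mRNA, 8.26% in WT mRNA and 3.801% in WT footprints. Upper-quartile factors shifted the median translation efficiency of all genes by 0.11. Signs were followed in footprints and mRNA only for the 30 genes chosen to be given in full. In translation efficiency they were followed only for the stalk genes, RPL10 and RPL32. Among these, signs turned for RPL14B mRNA (-0.0083) and RPL39 mRNA (-0.027) with upper-quartile factors, and RPL39 mRNA with the block (-0.058). They also turned for the translation efficiency of RPP1B (0.044) and RPP2A (0.11) with upper-quartile factors and of RPP2A with TMM without ribosomal protein genes (0.00015). None of these values passed a threshold. The causes were not tested.

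Same-numbered libraries did not deviate together between the strains: the correlations over 4835 genes were 0.02, 0.17 and 0.10 between their footprints, and -0.13 and -0.63 between their mRNA. Between footprints and mRNA of 1 strain they were 0.05, -0.03 and 0.41 in ΔES7S replicates 1 to 3, and 0.20 and 0.02 in WT replicates 2 and 3. Differently numbered ΔES7S footprint and mRNA libraries ran from -0.53 to 0.29. The deviations of the 2 WT mRNA libraries mirror each other, so their correlations with another library differ only in sign. The effect of the replicate block on single genes was followed only for the 30 genes chosen to be given in full. Among them, RPP0, RPL3, RPL25 and RPL30 no longer passed in footprints. Over footprints, mRNA and translation efficiency, 6 of their results passed with the block and not without it.

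With each library left out in turn, genes passing in footprints numbered 684 to 1749 in all and 5 to 72 higher among the 60S genes. In mRNA they numbered 0 to 2467 (60S genes 0 to 26 higher, 0 to 6 lower) and in translation efficiency 11 to 1848 (0 to 13 higher, 0 to 1 lower, median -0.21 to 0.38). Higher footprints than mRNA were found for 0 to 2 genes in WT and 1 to 6 in ΔES7S. In footprints and mRNA, signs were followed only for the 30 genes chosen to be given in full. Copy ratios were followed for the 6 pairs with the largest footprint difference. The other members were not checked. Among those followed, log2 fold changes crossed 0 in footprints for RPL21B (-0.091 to 0.41), RPL14B (-0.10 to 0.17), RPL35B (-0.19 to 0.012) and RPL15B (-0.050 to 0.33). In mRNA they did for RPL14B (-0.10 to 0.23), RPL35B (-0.10 to 0.99), RPL29 (-0.13 to 0.37), RPL39 (-0.053 to 0.14), and the copy ratios of RPL35 (-0.18 to 0.41) and RPL8 (-0.15 to 0.20). In translation efficiency, followed only for the stalk genes, RPL10 and RPL32, they did for RPP1A (-0.44 to 0.12), RPP1B (-0.29 to 0.20) and RPP2A (-0.43 to 0.35). The part of depth in these calls was not tested.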
